A study of Mus musculus with 12 samples.

Results

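The progesterone receptor gene Pgr and its coregulators were followed in mouse granulosa cells, the follicle cells that surround the oocyte, before and after an ovulatory hormone stimulus. The genes were listed by name: Pgr, the membrane-associated progesterone-binding proteins Pgrmc1 and Pgrmc2, the cofactor Nrip1, the coactivators Ncoa1, Ncoa2 and Ncoa3, and the corepressor Ncor1. Of these 8 genes, 7 had probe sets that the array annotation gave to 1 gene symbol, 21 probe sets in all of 34958, and Ncor1 was not analysed here. Of the 21 probe sets, 3 stayed at or under a log2 intensity of 2.5 on every array, close to the floor of the table at 2.21, and 18 exceeded it.

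PGR is a nuclear receptor that binds progesterone and switches on genes needed for rupture of the follicle, and in granulosa cells its own gene is known to be induced by the luteinizing hormone (LH) surge. The p160 coactivators NCOA1, NCOA2 and NCOA3 are recruited by steroid receptors bound to hormone and bring in histone acetyltransferases, whereas NCOR1 brings in histone deacetylases. NRIP1 (RIP140) is a ligand-dependent cofactor needed for ovulation, and PGRMC1 and PGRMC2 are heme-binding membrane proteins that are unrelated to the nuclear receptor.

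Wild-type (WT) females and littermates with a deletion of exon 6 of Snf2l (Ex6DEL), the gene Smarca1 of an ISWI chromatin remodeller, were 24 to 26 days old when injected with 5 IU of the follicle-stimulating gonadotropin PMSG. All 4 groups received it, and the 0 h groups were collected 48 h later. The 4 h groups received 5 IU of hCG, which acts on the LH receptor, at that point and were collected after a further 4 h. The deletion came from a cross of loxP mice on 129Sv with a broadly expressed Gata-1 Cre line on CD-1, passed through the germline and was kept without the Cre on 129SV, so it was not limited to granulosa cells. Each group had 3 arrays, each labelled as a pool of 5 mice, but the treatment text gives 5 mice per group; the 3 arrays may thus share mice, and p-values measure only the spread between arrays, which may be technical. Because these are bulk samples, fewer cells of a type and less RNA per cell cannot be told apart.

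The log2 intensity of Smarca1 was 10.31, 11.10 and 10.75 in WT and 10.96, 10.61 and 10.70 in Ex6DEL at 0 h, and 12.32, 10.96 and 10.80 in WT and 12.19, 11.05 and 10.72 in Ex6DEL at 4 h. The genotypes differed by 0.04 at 0 h and by -0.04 at 4 h (limma, adjusted p = 1 for both), and the position of the probe set against exon 6 was not examined, so it does not check the labels. Among the 9 granulosa markers measured, Inha lay at 16.3 to 18.2, Fst at 13.2 to 16.1, Foxl2 at 8.39 to 13.6 and Fshr at 7.69 to 13.6. Esr2 was lower, at 4.64 to 7.43, and Amh was at the floor on every array. Markers of other cells were present too: the theca and stroma marker Cyp17a1 lay at 9.20 to 15.1 and the oocyte marker Zp3 at 8.33 to 12.6. Over the arrays the mean of 6 endothelial markers ranged from 3.62 to 5.05, that of 7 leukocyte markers from 5.74 to 6.98, that of 3 red blood cell markers from 5.22 to 6.51 and that of 6 surface epithelium markers from 3.804 to 5.30. Of these, 1 endothelial gene (Pecam1) and 1 red blood cell gene (Hba-a1) were at the floor on every array. A pair of Ex6DEL 0 h arrays stood apart. Replicate 1 had the highest value of the 12 arrays in 4020 of 18194 genes (22.1%) and a mean over the 8 theca and stroma markers of 12.24, against 7.77 to 9.47 on the other 11 arrays, with all 8 markers highest there. Replicate 3 had a mean over 16 LH-induced ovulatory genes of 10.72, against 6.32 and 6.59 on the other arrays of its group and 6.22 to 7.29 on WT 0 h arrays. Where a given change of the 7 genes in Ex6DEL rests on either array, its value without that array is given too. For the genes of the lists further on, no such value is given.

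The sequences before the transcription starts of Pgr, which changed most after hCG, of Ncoa1, the only coregulator whose arrays did not overlap between times in both genotypes at every probe set above 2.5, and of Pgrmc1, which had a single array far above the rest, are shown for context. Each is the 250 bases before the annotated start, 5′ to 3′ on the gene's own strand, from RefSeq on GRCm38.p6. Capitals mark the letters of 5 motifs searched on both strands: the GC box GGGCGG, the CCAAT box, the core TGACG of the cAMP response element, the core AGGTCA bound by many nuclear receptors and the core AGAACA of the progesterone response element.
Pgr, chr9:8899583-8899832, strand plus: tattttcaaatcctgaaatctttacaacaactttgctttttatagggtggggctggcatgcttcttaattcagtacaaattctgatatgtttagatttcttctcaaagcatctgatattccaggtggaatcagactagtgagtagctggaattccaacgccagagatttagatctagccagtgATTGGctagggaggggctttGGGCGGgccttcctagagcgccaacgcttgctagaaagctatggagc
Pgrmc1, chrX:36597943-36598192, strand plus: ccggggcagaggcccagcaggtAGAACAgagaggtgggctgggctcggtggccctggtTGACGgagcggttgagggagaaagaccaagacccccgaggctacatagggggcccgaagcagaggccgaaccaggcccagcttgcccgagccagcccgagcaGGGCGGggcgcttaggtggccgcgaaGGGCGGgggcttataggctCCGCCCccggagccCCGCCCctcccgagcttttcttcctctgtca
Ncoa1, chr12:4477183-4477432, strand minus: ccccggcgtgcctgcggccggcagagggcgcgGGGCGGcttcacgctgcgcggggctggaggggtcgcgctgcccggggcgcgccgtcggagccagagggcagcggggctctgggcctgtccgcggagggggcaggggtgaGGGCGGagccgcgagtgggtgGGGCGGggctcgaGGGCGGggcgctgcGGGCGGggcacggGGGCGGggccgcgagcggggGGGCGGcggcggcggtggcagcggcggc
The windows searched ran on for a further 50 bases past the start, to 300 bases, and 6 of the 8 listed genes had one; Ncoa2 and Ncoa3 had none in the table. Pgr held 1 GC box, with its first base at -47 from the start, and 1 CCAAT box, read as ATTGG, at -67. Its GC content of 43.7% lay below the median of 52.7% over 32851 promoters, at percentile 18.2. Pgrmc1 (69.0% GC) held 5 GC boxes, 1 TGACG and 1 AGAACA, and Ncoa1 (84.7% GC, percentile 99.8) held 7 GC boxes and 1 AGAACA. Of all promoters of this length, 35.7% held GGGCGG, 37.4% CCAAT, 20.8% TGACG, 16.3% AGGTCA and 19.0% AGAACA. These are matches of letters, not sites, and no motif here was tested for occupancy.

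Pgr, the receptor itself, was near the floor in WT cells before hCG and high 4 h after it. The probe set 1439527_at, the brightest of 3 for the gene, had log2 intensities of 3.82, 2.30 and 2.89 on the 3 WT arrays of 0 h. It reached 14.08, 13.41 and 12.43 on the WT arrays of 4 h, so the groups were far apart. In Ex6DEL it had 4.71, 2.79 and 10.44 at 0 h and 14.40, 12.66 and 13.58 at 4 h. Replicate 3 of Ex6DEL 0 h thus lay between the levels of the other 0 h arrays and those of 4 h, and the times still did not overlap. Such a gap with 4 h above 0 h was found in 7.52% of all genes in WT and in 5.13% in Ex6DEL.

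In WT the level was 3.0003 ± 0.77 at 0 h against 13.31 ± 0.83 at 4 h (SD, n = 3), a log2 change of 10.31 (SE 1.66, 95% interval 6.52 to 14.10, limma adjusted p = 0.0358). Pgr was the 1 gene called of the 7 in WT, at an adjusted p under 0.05, where 0.929% of all 18194 genes were called (0.61% higher and 0.319% lower). The call was lost without any 1 of the 6 WT arrays or the 3 Ex6DEL 4 h arrays (adjusted p from 0.0529 to 0.124 without a WT array), while the change stayed between 9.92 and 10.75. In Ex6DEL the level was 5.98 ± 3.98 at 0 h against 13.55 ± 0.87 at 4 h, a log2 change of 7.57 (95% interval 3.78 to 11.36) that missed the threshold (limma adjusted p = 0.0557). None of the 7 genes was called in Ex6DEL, where 2.17% of all genes were (0.566% higher and 1.6% lower). An unadjusted p under 0.05 in the limma fit was reached by 2 of the 7 in Ex6DEL, against 18.9% of all genes. In WT it was reached by 2 of the 7, against 14.4%. Without replicate 3 of Ex6DEL 0 h the change of Pgr in Ex6DEL was 9.80 and passed (limma adjusted p = 0.00244). It was 6.93 without replicate 1 (limma adjusted p = 0.169) and 5.97 without replicate 2 (adjusted p = 0.136), and neither passed. Of the 12 fits without 1 array, 1 called Pgr in Ex6DEL. Without replicates 1 and 3 together, which leaves 1 array in the Ex6DEL 0 h group, the change was 10.76.

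The genotypes were not shown to differ in Pgr. The Ex6DEL level minus the WT level was 2.98 at 0 h (95% interval -0.81 to 6.77, limma adjusted p = 0.874), and the same difference was 0.24 at 4 h (95% interval -3.55 to 4.03, adjusted p = 1). The change after hCG in Ex6DEL minus that in WT was -2.74 (SE 2.35, 95% interval -8.10 to 2.62, adjusted p = 0.871). Without replicate 3 of Ex6DEL 0 h alone the difference at 0 h was 0.75 and the difference of changes -0.51, with the signs kept. Without replicates 1 and 3 together, which leaves 1 array in that group, the difference at 0 h was -0.22 and the difference of changes 0.45, both of the opposite sign. The intervals span several log2 units, so differences of that size in either direction were not detectable with these arrays.

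**Figure D1:**
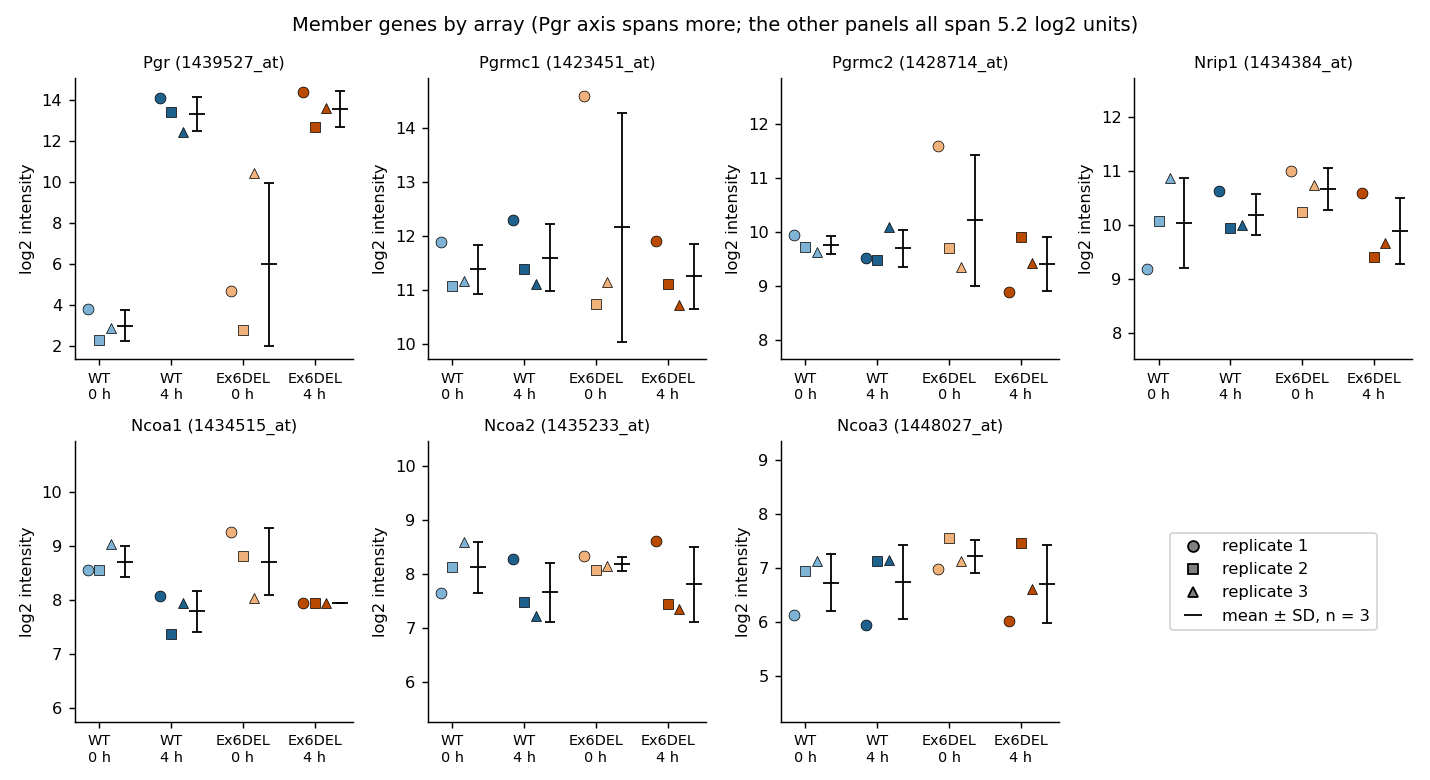
Log2 intensity (y axis) of the 7 genes on each of the 12 arrays, 1 panel per gene with its brightest probe set, by group on the x axis; point shapes give the replicate and bars the mean ± SD (n = 3), and the Pgr axis spans more than the others. Pgr lies at 2.30 to 4.71 on 5 of the 6 arrays of 0 h, at 10.44 on Ex6DEL 0 h replicate 3 and at 12.43 to 14.40 at 4 h.

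The other probe sets of Pgr differed in how clearly they followed. At 1421444_at the WT arrays had 3.93, 3.93 and 3.79 at 0 h and 8.92, 8.74 and 7.35 at 4 h. The Ex6DEL arrays had 3.93, 3.64 and 5.53 at 0 h and 8.83, 7.70 and 8.90 at 4 h, with replicate 3 again the highest of its 0 h group. The value of 3.93 was identical on 3 arrays of 0 h, WT replicates 1 and 2 and Ex6DEL replicate 1. The spread of the WT 0 h group, which enters the SE, may thus be understated. This probe set was called in both genotypes in the fit of all 34958 probe sets: the log2 change was 4.46 in WT (SE 0.59, limma adjusted p = 0.0236), against 4.11 in Ex6DEL (SE 0.59, adjusted p = 0.0325). The call in Ex6DEL was lost without replicate 1 of 0 h (3.89, limma adjusted p = 0.0894) and held without replicate 3 (4.69, adjusted p = 0.00775). In that fit 0.618% of probe sets were called in WT and 0.858% in Ex6DEL. At 1455772_at the WT arrays of 4 h had 5.37, 3.83 and 2.35, and every other group lay between 2.29 and 3.66. Its change of 1.502 in WT (adjusted p = 0.423) did not pass, nor did the 0.38 in Ex6DEL (adjusted p = 0.907). Where these probe sets lie in the gene was not examined.

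**Figure D2:**
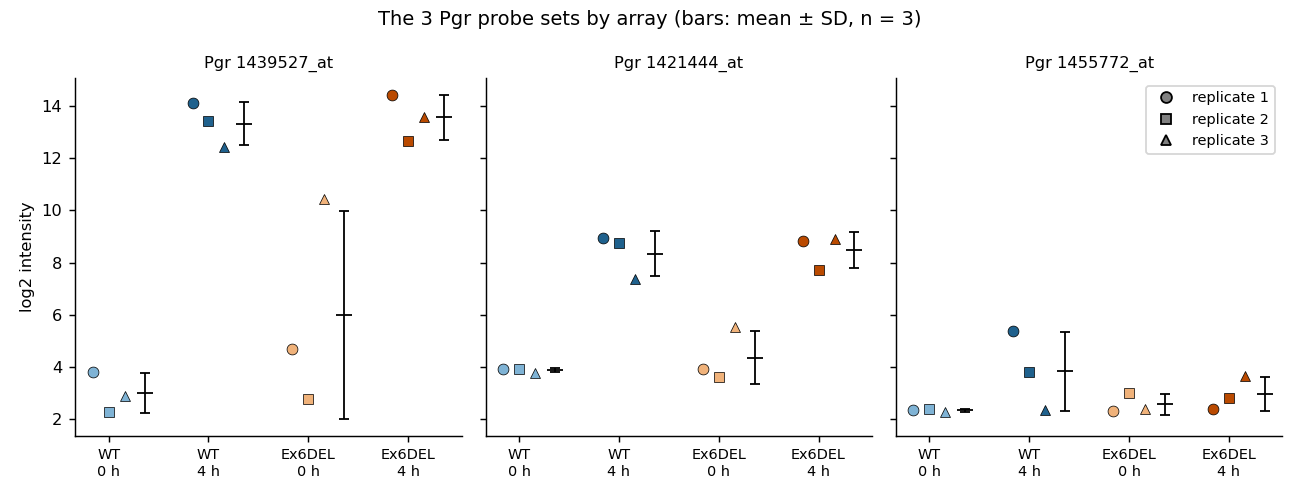
Log2 intensity (y axis) of the 3 Pgr probe sets on each array, by group on the x axis; shapes give the replicate and bars the mean ± SD (n = 3). The times are apart at 1439527_at and 1421444_at, with Ex6DEL 0 h replicate 3 at 10.44 and 5.53, and overlap at 1455772_at.

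The membrane-associated proteins did not pass the test in any comparison. Pgrmc1 had log2 intensities of 11.90, 11.08 and 11.18 in WT at 0 h and 12.31, 11.40 and 11.11 at 4 h. The Ex6DEL arrays gave 14.61, 10.75 and 11.15 at 0 h and 11.92, 11.12 and 10.73 at 4 h. One array, replicate 1 of Ex6DEL 0 h, stood 2.30 above the next highest of the 12, and the rest overlapped. The change was 0.22 in WT (95% interval -1.87 to 2.31, limma adjusted p = 1), against -0.91 in Ex6DEL (95% interval -3.002 to 1.18, adjusted p = 0.644), the second of which turned to 0.31 without that array.

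Pgrmc2 had at 1428714_at 9.95, 9.71 and 9.62 in WT at 0 h and 9.52, 9.48 and 10.08 at 4 h. For Ex6DEL the values were 11.59, 9.70 and 9.34 at 0 h and 8.89, 9.90 and 9.42 at 4 h, again with replicate 1 of 0 h the highest. The change was -0.07 in WT (95% interval -1.29 to 1.16, limma adjusted p = 1), against -0.81 in Ex6DEL (95% interval -2.03 to 0.41, adjusted p = 0.493). Its second probe set, 1452882_at, had 7.31, 7.68 and 8.09 in WT at 0 h and 6.76, 6.74 and 7.12 at 4 h. In Ex6DEL it had 9.15, 7.51 and 6.84 at 0 h and 6.36, 6.67 and 5.91 at 4 h. There all arrays of 4 h lay below all of 0 h within each genotype, as at 8.71% of probe sets in WT and 10.6% in Ex6DEL, but the changes of -0.82 (limma adjusted p = 0.628) and -1.52 (adjusted p = 0.211) did not pass. The 95% interval of the change in Ex6DEL at 1452882_at ran from -2.71 to -0.33, below 0 before adjustment. Without replicate 1 of Ex6DEL 0 h the changes in Ex6DEL were -0.12 at 1428714_at and -0.86 at 1452882_at (limma adjusted p = 1 and 0.365).

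Nrip1, the cofactor needed for ovulation, had at 1434384_at 9.18, 10.07 and 10.86 in WT at 0 h and 10.63, 9.94 and 10.003 at 4 h. The Ex6DEL arrays gave 11.01, 10.24 and 10.74 at 0 h and 10.59, 9.42 and 9.67 at 4 h. The times overlapped in both genotypes. The change was 0.15 in WT (95% interval -0.90 to 1.20, limma adjusted p = 1), against -0.77 in Ex6DEL (95% interval -1.82 to 0.28, adjusted p = 0.442). Of its other probe sets, 1449089_at had 11.78, 9.65 and 10.45 in Ex6DEL at 0 h and 9.65, 9.05 and 9.52 at 4 h, a change of -1.22 that did not pass (adjusted p = 0.265) and was -0.64 without replicate 1 of 0 h (adjusted p = 0.488). The probe sets 1418469_at and 1454295_at overlapped between times in both genotypes, 1447211_at stayed under 2.9 and 1432603_at was at the floor.

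Among the p160 coactivators, Ncoa1 came nearest to a change, and in the opposite direction to Pgr. It had at 1434515_at 8.55, 8.55 and 9.04 in WT at 0 h and 8.07, 7.36 and 7.95 at 4 h. For Ex6DEL the values were 9.26, 8.82 and 8.04 at 0 h and 7.95 on all 3 arrays of 4 h. Every array of 4 h lay below every array of 0 h in both genotypes, as for 11.4% of all genes in WT and 14.5% in Ex6DEL. The log2 change was -0.92 in WT (SE 0.31, 95% interval -1.61 to -0.22, limma adjusted p = 0.221), against -0.76 in Ex6DEL (SE 0.31, 95% interval -1.46 to -0.06, adjusted p = 0.226), so neither was called. The unadjusted p-values of the limma fit were 0.0158 and 0.0362, at a level reached by 14.4% and 18.9% of all genes.

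The value of 7.95 was the same on 4 arrays, the 3 of Ex6DEL at 4 h and replicate 3 of WT at 4 h, so the SD of 0 in that group is not a measure of its spread. Such repeated values above the floor, shared by 4 or more arrays, occurred in 580 of 9097 genes above the median level (6.38%). The second probe set of Ncoa1, 1418594_a_at, had 7.22, 6.99 and 7.80 in WT at 0 h and 6.74, 6.76 and 6.86 at 4 h. In Ex6DEL it had 7.84, 7.60 and 7.17 at 0 h and 6.28, 6.98 and 5.58 at 4 h. Its arrays did not overlap between times in either genotype, with changes of -0.55 in WT (limma adjusted p = 0.628), against -1.26 in Ex6DEL (adjusted p = 0.134), and it repeated no value. The change of Ncoa1 at 1434515_at in Ex6DEL passed without replicate 3 of 0 h (-1.09, limma adjusted p = 0.0418) and was -0.48 without replicate 1 (adjusted p = 0.514), and that in WT passed with array weights (-0.87, adjusted p = 0.0386). The change in Ex6DEL minus that in WT was 0.16 (95% interval -0.83 to 1.14, adjusted p = 0.975).

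Ncoa2 had at 1435233_at 7.64, 8.13 and 8.58 in WT at 0 h and 8.27, 7.48 and 7.22 at 4 h. The Ex6DEL arrays gave 8.32, 8.07 and 8.14 at 0 h and 8.61, 7.45 and 7.36 at 4 h. The times overlapped, and the changes were -0.46 in WT (95% interval -1.37 to 0.44, limma adjusted p = 0.645), against -0.37 in Ex6DEL (95% interval -1.28 to 0.54, adjusted p = 0.675). A dimmer probe set, 1435234_at, had changes of the opposite sign, 0.77 in WT and 0.62 in Ex6DEL, which did not pass either (adjusted p = 0.443 and 0.496). The probe set 1446827_at overlapped between times in both genotypes, and 1450458_at had 2.49 on every array.

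Ncoa3 had at 1448027_at 6.13, 6.94 and 7.13 in WT at 0 h and 5.94, 7.13 and 7.15 at 4 h. For Ex6DEL the values were 6.98, 7.56 and 7.13 at 0 h and 6.02, 7.48 and 6.61 at 4 h. The changes were 0.01 in WT (95% interval -1.05 to 1.06, limma adjusted p = 1), against -0.52 in Ex6DEL (95% interval -1.57 to 0.54, adjusted p = 0.587). The other probe set, 1422737_at, did not pass in WT or Ex6DEL (adjusted p = 0.744 and 0.375).

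**Figure D3:**
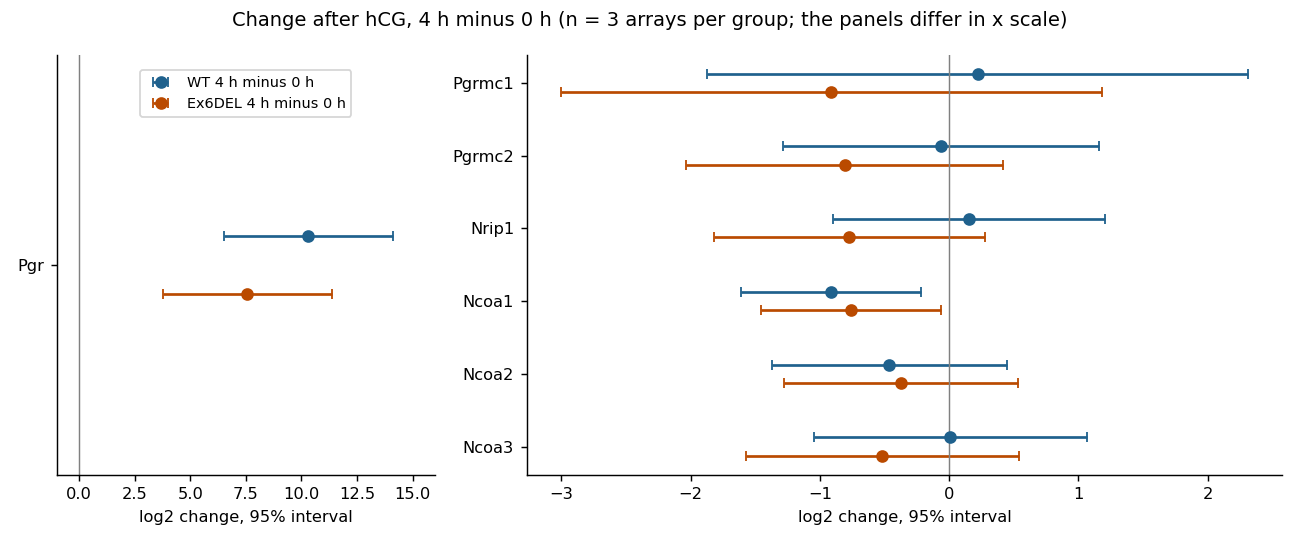
Log2 change from 0 h to 4 h (x axis) of each gene in WT and Ex6DEL cells; points are the estimates of the fit and bars their 95% intervals (n = 3 arrays per group), and the panels differ in x scale. Pgr stands at 10.31 and 7.57, the intervals of Ncoa1 end below 0, and those of the other 5 genes cross 0.

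None of the 7 genes was called between genotypes at either time, or in the difference of changes. At 0 h 0.033% of all genes were called between genotypes (6 genes), at 4 h 0%, and in the difference of changes 0.011% (2 genes). By the unadjusted p under 0.05 of the limma fit the counts over all genes were 975 (5.36%) at 0 h, 294 (1.62%) at 4 h and 583 (3.2%) for the difference of changes. At their brightest probe sets 0 of the 7 genes reached that level in any of them. At 0 h the differences ranged from -0.00 for Ncoa1 (95% interval -0.70 to 0.69) to 2.98 for Pgr, with Nrip1 at 0.62 (95% interval -0.43 to 1.67). At 4 h they ranged from -0.35 for Pgrmc1 (95% interval -2.44 to 1.74) to 0.24 for Pgr. Differences as small as most of these could not be detected with this spread. In the fit of all probe sets 0 of the 21 were called between genotypes at 0 h, where 0.0286% of probe sets were, at 4 h, where 0.00858% were, or in the difference of changes, where 0.0286% were. The dim Ncoa2 probe set 1446827_at had a difference of 0.54 at 0 h (95% interval 0.03 to 1.06). Its unadjusted p in the limma fit was 0.0402 and its adjusted p 0.927, and the arrays overlapped. At the Pgrmc2 probe set 1452882_at every Ex6DEL array of 4 h lay below every WT array of 4 h, as at 1.67% of probe sets, by -0.56 on the log2 scale (limma adjusted p = 1).

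Replicate 1 of Ex6DEL at 0 h was the highest of the 12 arrays at 11 of the 21 probe sets, and in 22.1% of all genes at their brightest probe set. The 11 include Ncoa1 1443397_at, close to the floor at 2.25, and Ncoa1 1418594_a_at, where the gap to the next array was 0.04. At Pgrmc1 this array exceeded the mean of the other arrays of its group by 3.66, more than at 99.8% of genes, at the Nrip1 probe set 1418469_at by 3.14 and at Pgrmc2 by 2.07. The excess at 1418469_at was the largest of the Nrip1 probe sets. At the brightest of them, 1434384_at, the excess was 0.52, more than at 77.6% of genes. On this array the theca and stroma markers were all at their highest, with Cyp17a1 at 15.1 and Col1a2 at 15.2. Of 9 oocyte markers 5 were highest, among them Zp3 at 12.6, and 5 of 9 granulosa markers were highest as well. The mean of the endothelial markers (5.05) was the highest of the 12 arrays by a small margin. The means of the leukocyte markers (5.74) and of the red blood cell markers (5.22) were the lowest. Neither Pgr nor Ncoa3 was highest there. The part of these other cells in the values of Pgrmc1, Pgrmc2 and Nrip1 was not tested.

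**Figure D4:**
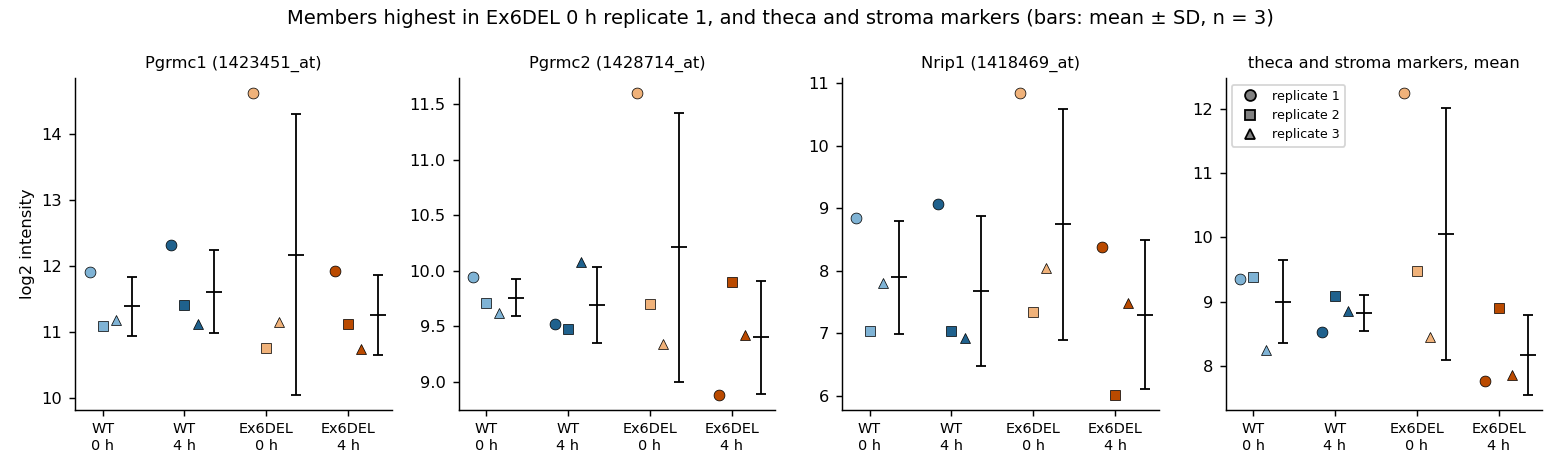
Log2 intensity (y axis) of Pgrmc1, Pgrmc2 (1428714_at) and Nrip1 (1418469_at), and the mean of the 8 theca and stroma markers, on each array by group. Shapes give the replicate and bars the mean ± SD (n = 3). For Nrip1 the probe set with the largest gap on replicate 1 of Ex6DEL 0 h is shown, not the brightest. Replicate 1 of Ex6DEL 0 h is the highest array in all 4 panels, at 14.61, 11.59, 10.84 and 12.24.

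The genes whose pattern over the 12 arrays was most like that of Pgr were Btc (Pearson r = 0.993), Vmp1 (0.991), Nts (0.991), Ptgs2 (0.988), Sult1e1 (0.987) and Chgb (0.987), and 215 genes had r above 0.9. The arrays share their time and groups, and r here mostly follows the step between 0 h and 4 h. The 6 were chosen by r over all 12 arrays, Ex6DEL 0 h replicate 3 included. Their rise on that array, as for Pgr, thus follows from the choice and is not separate evidence. Btc, an EGF-like growth factor, stood at 10.99 there against 2.59 to 3.84 on the other arrays of 0 h and 13.49 to 15.10 at 4 h. Ptgs2, the prostaglandin synthase of ovulation, stood at 10.08 against 2.27 to 5.33 and 10.83 to 13.88. In at least 1 promoter window 5 of these 6 genes held TGACG, 2 a GC box, 2 AGGTCA, 1 AGAACA and 0 a CCAAT box. Over all promoters the shares were 20.8%, 35.7%, 16.3%, 19.0% and 37.4% in the same order. Pgr held a GC box and a CCAAT box and none of the other motifs. Vmp1 had several windows, which gives more room for a match, and the counts were not tested. Among the coregulators r with Pgr was -0.85 for Ncoa1 and between -0.41 and -0.11 for the others (n = 12 arrays).

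The lists from here on were chosen with earlier results of these data known, so their shares of calls are not independent support. Genes known to depend on PGR in ovulating granulosa cells rose in part. Of 14 measured, 3 were called higher and 0 lower in each genotype, where 0.61% of all genes were called higher in WT and 0.566% in Ex6DEL, with a median change of 1.26 in WT and 0.97 in Ex6DEL against 0 and -0.01 over all genes. Prkg2, a cGMP-dependent kinase, rose by 5.23 in WT (limma adjusted p = 0.0045), and by 6.15 in Ex6DEL cells (adjusted p = 0.00307). Snap25, a SNARE protein of vesicle release, rose by 6.15 and 6.60 (adjusted p = 0.000316 and 0.000393), and Adcyap1, the neuropeptide PACAP, by 5.01 and 4.94 (adjusted p = 0.0283 and 0.0285). The protease Adamts1 had changes of 1.99 and 0.91 (adjusted p = 0.277 and 0.558) and the chemokine receptor Cxcr4 6.37 and 5.12 (adjusted p = 0.106 and 0.126), which did not pass; both were picked after their values were seen.

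Of 6 measured genes that depend on NRIP1 in cumulus expansion, all had positive changes in both genotypes and 1 was called higher in each. Over all genes 0.61% were called higher in WT and 0.566% in Ex6DEL. The list medians were 8.44 in WT and 6.75 in Ex6DEL, against 0 and -0.01 over all genes. Btc rose by 11.27 in WT (limma adjusted p = 0.0429) and had a change of 8.85 in Ex6DEL cells that did not pass (adjusted p = 0.0576). The matrix protein Ptx3 rose by 6.73 in Ex6DEL (limma adjusted p = 0.0457) and had a change of 7.16 in WT cells that did not pass (adjusted p = 0.0522). Neither was called in the difference of changes. On Ex6DEL 0 h replicate 3 the mean of this list was 10.73, against 4.39 and 3.26 on the other arrays of its group. Of 16 LH-induced genes, 4 were called higher in each genotype, against the same 0.61% and 0.566% of all genes. Runx1, Snap25 and Sult1e1 were called in both, Btc in WT and Ptx3 in Ex6DEL. The lists overlap and are not separate evidence: all 6 NRIP1-dependent genes stand in the LH-induced list, as do Adamts1, Edn2, Snap25 and Ereg of the PGR-dependent genes.

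In the lists of the machinery around the receptor the calls are set against 0.929% of all genes in WT and 2.17% in Ex6DEL. Of 9 steroid receptor chaperones none was called in either genotype, with medians of 0.51 and -0.12, and the cochaperone Bag1 had the smallest p in WT with a change of 0.51 (limma adjusted p = 0.213). Of 17 other coactivators none was called, with medians of -0.16 and -0.26; Ncoa7, an estrogen receptor-associated protein, had the largest changes, 3.51 (limma adjusted p = 0.0658) and 3.10 (adjusted p = 0.0649). Of 10 corepressors and partners of the NCOR complex 1 was called in each genotype, the complex subunit Tbl1x, which rose by 1.92 in WT (adjusted p = 0.0178), against 1.30 in Ex6DEL (adjusted p = 0.0384). Of 4 other steroid receptors the estrogen receptor Esr1 fell by 1.75 in Ex6DEL (limma adjusted p = 0.047), and had a change of -1.47 in WT (adjusted p = 0.098). Of 8 membrane progestin receptors and relatives of PGRMC1 none was called, with medians of -0.91 and -0.79; Paqr8 had changes of -2.52 and -2.78 (adjusted p = 0.289 and 0.172), Paqr7 of -1.47 and -2.40 (adjusted p = 0.339 and 0.0876) and Nenf, a secreted relative of PGRMC1, of -0.82 and -2.17 (adjusted p = 0.611 and 0.116). No gene of the 8 lists was called between genotypes or in the difference of changes; with quantile normalization Serbp1, the PGRMC1 partner, was called at 0 h with its sign turned (-0.36, limma adjusted p = 0.0324, against 0.72, adjusted p = 0.874).

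Over the 8 lists 7 different genes were called in WT (9.46%) and 8 in Ex6DEL (10.8%), of 74 measured. Without replicate 3 of Ex6DEL 0 h the counts were 14 and 19, while the calls over all genes went from 169 to 271 (1.49%) in WT and from 394 to 1256 (6.9%) in Ex6DEL. They were 2 in each without WT 0 h replicate 2, with 53 genes (0.291%) and 32 (0.176%) called over the table.

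**Figure D5:**
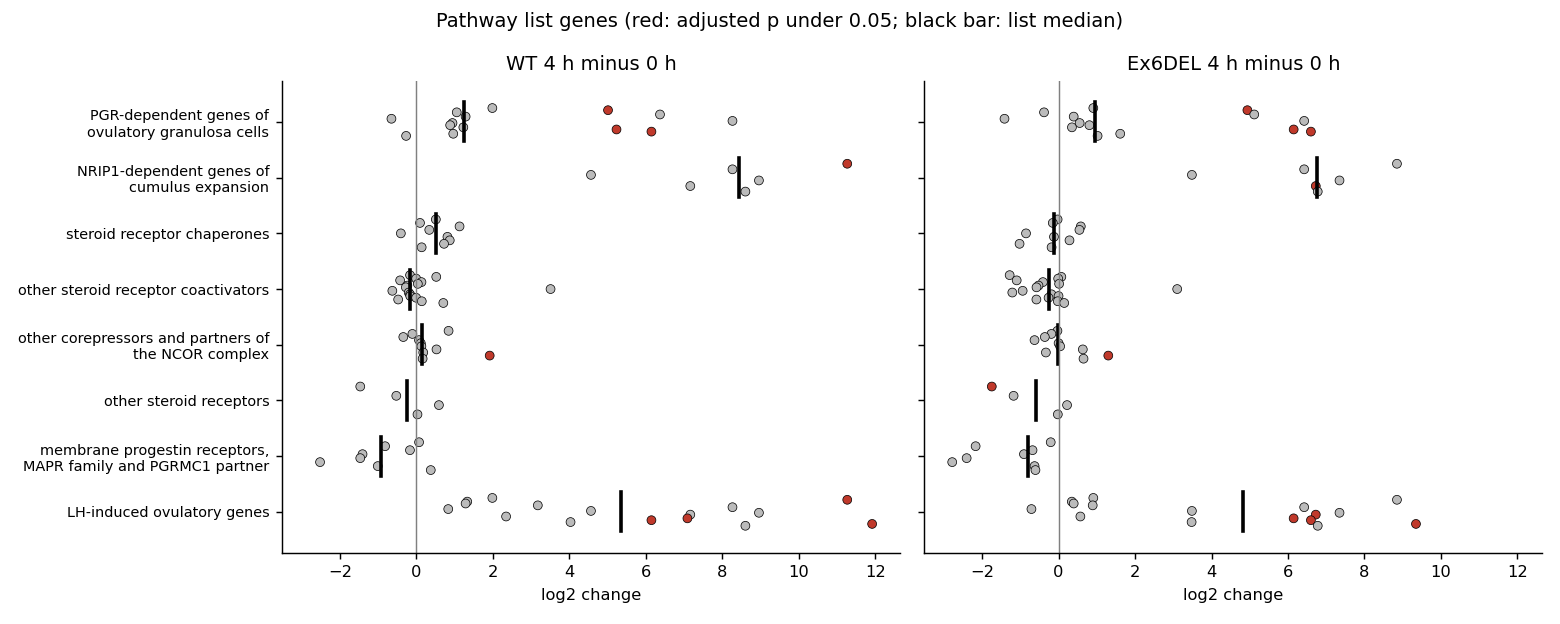
Log2 change from 0 h to 4 h (x axis) of every measured gene of the 8 lists, in WT and in Ex6DEL; red points have an adjusted p under 0.05 and black bars mark list medians. The NRIP1-dependent and LH-induced lists lie to the right, with medians from 4.82 to 8.44, and the coactivators and chaperones lie around 0.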

How the data were processed

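RNA of granulosa cells was measured on 12 Affymetrix mouse arrays. Each probe set has a deposited log2 intensity, made by the authors with GCRMA (version not given), per the submitters' processing notes. The genome build and other settings are not given in the sources used here. Of 45101 probe sets, 34958 had exactly 1 symbol in the platform annotation; 932 with several symbols and 9211 not listed were left out. A gene was represented by its probe set with the highest mean (18194 genes), and the other probe sets were taken from a fit of all 34958.

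One model of the 4 groups, without covariates, was used with 5 contrasts (limma 3.58.1, lmFit and eBayes, under R 4.3.3). The p-values are two-sided and adjusted by Benjamini-Hochberg over all genes or all probe sets, and a call is an adjusted p under 0.05. No filter on low values was used. The procedure was tested on simulated data. Replicate numbers follow the labels. The members and the lists were chosen with earlier results of these data known. Named genes are the members, Smarca1, the called genes of each list or else up to 3 with the smallest p, and the 6 genes with the highest correlation with Pgr. The cell type markers named as checks, Adamts1, Cxcr4, Edn2, Ereg and Serbp1 stand outside this rule and were chosen after their values were seen. The 12 alternatives, among them each array left out in turn, and a fit without Ex6DEL 0 h replicates 1 and 3, added after the data were seen, are given in the closing section. The number of arrays limits the precision.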

Additional observations from a re-analysis of the deposited data

How the results depend on the processing

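Pgr in WT kept its direction under every alternative run (5.42 to 10.86) and its call in 13 of 23. With the replicate number of the labels as a block it was lost (10.31, limma adjusted p = 0.0656), which left 0 of the 7 genes called in WT, and an adjusted p under 0.01 also left 0; array weights gave 2. With each array left out in turn the change of Pgr ranged from 9.92 to 10.75 in WT and from 5.97 to 9.80 in Ex6DEL, and the genes called from 0 to 1 and from 0 to 2. Pgr in Ex6DEL passed with quantile normalization (7.66), one common median for all arrays (7.51), a test of the brighter genes alone (7.57) and the mean of probe sets (4.02), each with 1 of the 7 genes called. Without Ex6DEL 0 h replicates 1 and 3 together, which leaves 1 array in that group, the change was 10.76. The cause of the other losses and gains was not tested.

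The genes called over the whole table ranged from 17 to 2289 in WT and from 8 to 1334 in Ex6DEL over the alternatives, against 169 and 394. The block gave 85 and 92. Of 18 pairs of arrays with the same number 11 correlated above 0.1 (range -0.37 to 0.73). A pairing was to be taken only if all did, so the numbers were not taken to pair the arrays; 9 of 12 arrays correlated best with their own number, a hint from the data and not from the design. Over the lists the genes called ranged from 2 to 24 in WT and from 0 to 19 in Ex6DEL, and quantile normalization called 1 of them, Serbp1, between genotypes at 0 h. Quantile normalization gave 144 genes higher and 147 lower in WT, against 111 and 58. For the brighter genes it moved the median log2 change from -0.34 to -0.15 in Ex6DEL, from 0.21 to -0.03 between genotypes at 0 h and from -0.32 to -0.01 for the difference of changes.

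Values of the 7 genes that turned sign belonged to changes that had not passed, and none passed after turning. With quantile normalization these were, in WT, Pgrmc1 (-0.27) and Nrip1 (-0.081), and between genotypes at 0 h Pgrmc2 (-0.00385) and Ncoa2 (-0.12). The shift to one median gave 0.013 for Ncoa1 at 0 h. The mean of probe sets gave Nrip1 -0.089 and Ncoa2 0.14 in WT, Ncoa2 0.013 and Ncoa3 0.24 in Ex6DEL, Ncoa1 0.069 between genotypes at 0 h, Pgr -0.17, Ncoa1 -0.12 and Ncoa3 0.065 at 4 h, and Ncoa1 -0.19 and Ncoa2 -0.13 for the difference of changes. Array weights gave Ncoa3 -0.11 in WT and Ncoa2 -0.043 at 0 h. Without Ex6DEL 0 h replicates 1 and 3 together Pgrmc1 was 0.51 in Ex6DEL; at 0 h Pgr was -0.22, Pgrmc1 -0.64, Pgrmc2 -0.055, Ncoa1 0.11 and Ncoa2 -0.047; and the difference of changes was 0.45 for Pgr and 0.29 for Pgrmc1.

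With each array left out in turn, other ranges that crossed 0 were as follows. In WT they were -0.13 to 0.48 for Pgrmc1, -0.26 to 0.042 for Pgrmc2, -0.27 to 0.56 for Nrip1 and -0.29 to 0.41 for Ncoa3. In Ex6DEL the range was -1.62 to 0.31 for Pgrmc1. Between genotypes at 0 h they were -0.44 to 1.49 for Pgrmc1, -0.24 to 0.89 for Pgrmc2, -0.28 to 0.33 for Ncoa1 and -0.18 to 0.29 for Ncoa2. At 4 h they were -0.20 to 0.68 for Pgr, -0.68 to 0.00081 for Pgrmc1, -0.061 to 0.29 for Ncoa1, -0.25 to 0.46 for Ncoa2 and -0.44 to 0.30 for Ncoa3. For the difference of changes they were -1.84 to 0.088 for Pgrmc1, -0.17 to 0.44 for Ncoa1 and -0.31 to 0.40 for Ncoa2.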
